A study of Saccharomyces cerevisiae with 6 samples.

Results

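The yeast cell wall is a layer of β-1,3-glucan stiffened by chitin and covered by mannoproteins, and 33 genes for these mannoproteins and for the enzymes that build and remodel the wall were followed here. They were chosen by gene name, with no rule on the measured values, but with earlier results of these data known. Shares of the list set beside those of all genes are therefore descriptions. All 33 were among the 5913 genes listed in the deposited table. The list holds 11 mannoproteins of the type attached through a glycosylphosphatidylinositol (GPI) anchor, 4 PIR proteins (proteins with internal repeats), 3 glucan synthases, 3 chitin synthases, 9 glucan remodelling enzymes and 3 others, which are a pair of SUN family proteins and a wall protease. The samples were cultures of Saccharomyces cerevisiae BY4741, a strain of the S288C background, in which chromosomal NOT4 was deleted (not4Δ) and Not4 was supplied from a plasmid. In 3 cultures the plasmid expressed Not4RRM, a mutant with 3 substitutions in the RNA recognition motif and the adjoining zinc finger, and in 3 cultures it expressed Not4WT, so both groups shared the deletion, the medium without uracil and the plasmid type. Both proteins carried a FLAG tag, and the plasmid, a centromeric one marked with URA3, drove them with the ADH1 promoter. Not4 is a ubiquitin ligase of the Ccr4-Not complex, and the comparison asks how gene expression depends on its RNA recognition motif region. Poly(A) RNA was sequenced on an Ion Torrent Proton.

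In growing cells, Fks1 or its paralog Gsc2 spins β-1,3-glucan chains at the plasma membrane, and the Gas, Crh, Bgl2 and Scw enzymes then elongate, branch or crosslink them outside the cell. GPI proteins are cut from their membrane anchor and joined to β-1,6-glucan, while PIR proteins bind β-1,3-glucan directly. When the wall is stressed, sensors of the Wsc and Mid2 type signal through Rho1, Pkc1 and the MAP kinase Slt2 to the transcription factors Rlm1 and Swi4-Swi6, whose known targets include many wall genes. Swi4-Swi6 also switches on genes late in G1, when the bud wall is begun.

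The deposited values are read counts that the authors scaled to the sample of lowest coverage, with totals of 14881818 to 14881884 per sample, so depth before scaling is unknown and the spread between the 3 cultures is the only error given. Levels below are these scaled counts after TMM normalisation, a trimmed mean of log ratios, and fold changes are Not4RRM over Not4WT on the log2(value + 1) scale from limma, which understates the change of low genes. A gene was called where its p, adjusted by Benjamini and Hochberg's method, was under 0.05 and its level differed 1.5-fold or more. NOT4 itself (MOT2 in the annotation) averaged 39743 with Not4RRM and 10939 with Not4WT, a log2 fold change of 1.87 (standard error 0.23, limma adjusted p = 0.0720), and plasmid URA3 averaged 6145 with Not4RRM and 1075 with Not4WT, so the groups differed in plasmid transcripts as well as in the Not4 allele. LEU2 and MET17, which the strain lacks, were at 11.1 to 26.7 in all 6 libraries. HIS3 was at 867 to 2592, but the his3Δ1 allele removes only a part of that gene. Not4RRM replicate 1 stood apart from the other Not4RRM cultures. Its Pearson correlation on the log2 scale was 0.952 and 0.947 with them, while they had 0.993 with each other. With Not4WT replicates 1, 2 and 3 it was 0.963, 0.951 and 0.959. Not4WT replicate 3 had 0.983 and 0.979 with Not4RRM replicates 2 and 3, against 0.984 and 0.968 with Not4WT replicates 1 and 2. These correlations therefore did not sort all libraries by group. The Spearman correlation of deviations from the Not4WT mean with coding length was -0.54 in Not4RRM replicate 1, against -0.21 to 0.27 in the other 5 libraries. Not4WT libraries are part of that mean, so their values are not fully alike in kind. Wall gene values that removal of Not4RRM replicate 1 moved by over 1.5 times, or across an adjusted p of 0.05, are given with and without it. With any 1 of the other 5 libraries left out in its place, 0 of the 33 wall genes were called. Not4WT replicate 2 was the library with the 0.27, while the other 5 lay between -0.54 and -0.15, and its Pearson correlations with Not4RRM replicates 2 and 3, 0.949 and 0.938, were as low as those of Not4RRM replicate 1, with 0.938 the lowest of all pairs. The 275 genes of chromosome VIII had a median log2 fold change of 0.65, and 0 of the 33 wall genes lie there.

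Most of the wall genes had a negative log2 fold change, although none passed the threshold. By sign alone, 26 of the 33 were lower and 7 higher, a share lower of 78.8%, against 45.2% lower and 54.8% higher over the 5805 tested genes. With the deposited equal totals in place of TMM scaling, which shifts the median of all genes by -0.12, 29 wall genes were lower and 4 higher, and 57.2% of tested genes were lower. With TMM, the log2 fold changes of the 33 had a median of -0.33, against 0.05 over all tested genes, and single values ran from -1.24 for CCW22 to 0.70 for PST1. The 33 genes together took a share of all scaled counts of 3.50%, 3.75% and 3.47% in the Not4RRM cultures, against 5.09%, 5.62% and 4.38% in the Not4WT cultures, with means of 3.57 ± 0.156% with Not4RRM and 5.03 ± 0.622% with Not4WT (SD, n = 3 each). The highest Not4RRM culture was under the lowest Not4WT culture in this share. Shares here and below are of the deposited equal totals, without TMM scaling. The TMM sizes were 0.929 to 0.973 for Not4RRM and 1.01 to 1.08 for Not4WT, so that scaling raises Not4RRM values relative to Not4WT values. In bulk RNA, fewer cells of a type and less RNA per cell cannot be told apart.

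At the level of single genes, limma called 0 of the 33 and 0 of the 5805 tested genes (0%), with 926 tested genes (16.0%) and 9 wall genes (27.3%) at an unadjusted p under 0.05. The 926 were 571 higher (9.84%) and 355 lower (6.12%), a split that equal totals turned to 378 higher and 634 lower, while the wall genes were 1 higher and 8 lower with TMM and 1 higher and 10 lower with equal totals. Of the 9, PST1 was higher and CCW22, SIM1, GAS3, GAS5, SCW4, FKS1, GAS1 and CHS3 were lower, so 24.2% of the list was lower at that level, against 6.12% of all tested genes. The groups did not overlap for 15 wall genes (45.5%), against 24.5% of tested genes, and 14 of the 15 were lower (42.4%, against 12.2%) and 1 higher (against 12.3%). With 3 cultures in each group, an exact two-sided permutation test of a single gene cannot go below p = 0.1. The steps of the study's methods are an unequal-variance test per gene with an unadjusted p under 0.05 and a 1.5-fold change, followed by a Benjamini-Hochberg adjustment within the resulting list only, at which every gene passes since all enter it under 0.05. These steps selected 355 of 5913 genes, 130 higher (2.20%) and 225 lower (3.81%), and 7 wall genes, all lower (21.2%): CCW22, SIM1, GAS3, GAS5, SCW4, FKS1 and GAS1.

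**Figure D1:**
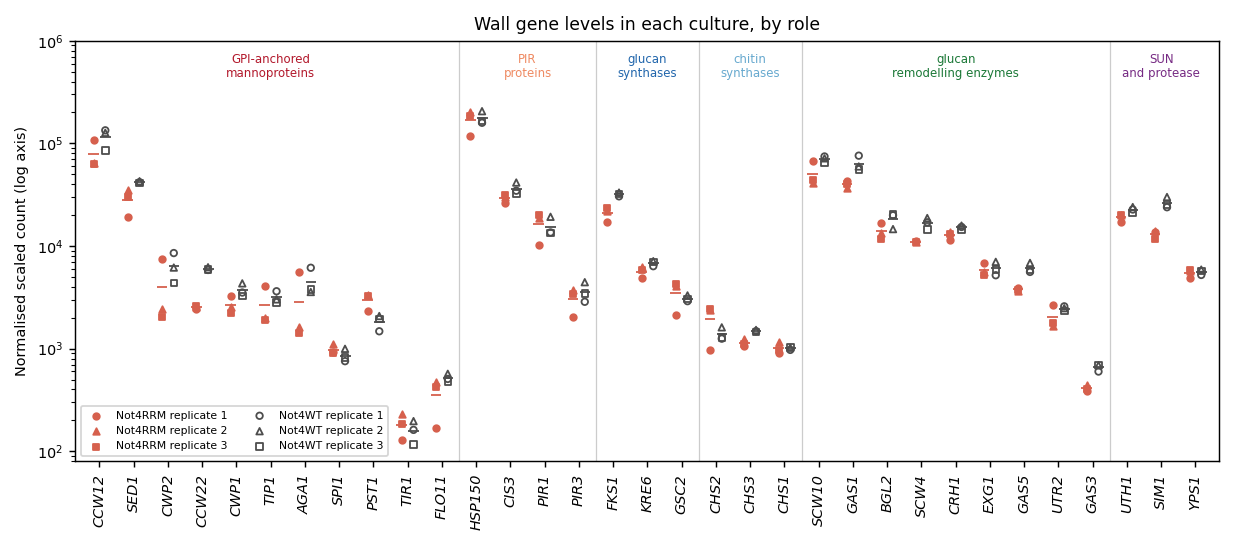
Normalised scaled counts (log axis) of the 33 wall genes in each of the 6 cultures, ordered by role, with filled symbols for Not4RRM, open symbols for Not4WT and a bar at each group mean (n = 3 each). The 3 Not4RRM cultures sit close together and under the Not4WT cultures for CCW22 (2412 to 2602 with Not4RRM, against 5842 to 6207 with Not4WT) and GAS3, while replicate 1 (circle) sits away from the other Not4RRM cultures for CWP2, AGA1, FLO11 and CHS2.

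The list is made up of highly expressed genes. Per kilobase of coding sequence, the median wall gene had 4435 scaled counts over all samples, against 375 for all tested genes, and 8.20% of 5768 other genes reached that level. Highest per kilobase was CCW12, a major GPI mannoprotein of the growing bud, with 195579 in Not4RRM and 287040 in Not4WT cultures, rank 8 of all genes. HSP150, the main PIR protein, followed with 135396 in Not4RRM and 142141 in Not4WT cultures (rank 21), then SCW10, a glucanase-like wall protein, with 43249 in Not4RRM and 59930 in Not4WT cultures (rank 53). At the other end FLO11, a flocculin needed for adhesion and invasive growth, had 86.7 per kilobase in Not4RRM and 126 in Not4WT cultures (rank 4921). The 473 other genes at or above 4435 per kilobase had a median log2 fold change of 0.16 and 37.8% of them were lower. The wall genes had a median GC content of 44.3%, against 39.8% for 5801 tested genes with a gene model, over which the log2 fold change had a Spearman correlation of -0.19 with GC content and -0.41 with coding length. Within the 33 genes the correlation with coding length was 0.06. These are descriptions across genes, which are not independent replicates.

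Among the GPI-anchored mannoproteins, which form the outer coat, 8 of 11 were lower and 3 higher (median log2 fold change -0.57). The group took 1.00%, 0.757% and 0.675% of scaled counts with Not4RRM, against 1.44%, 1.43% and 1.02% with Not4WT. In these shares of the deposited totals the 2 ranges came close to each other without overlapping. With TMM scaling (sizes 0.973 for Not4RRM replicate 1 and 1.01 for Not4WT replicate 3) those 2 cultures change order, so the ranges overlap. At an unadjusted p under 0.05, 1 was lower (CCW22, annotated as a pseudogene) and 1 higher (PST1).

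CCW22 (YDR134C) had the largest difference of the 33 with all samples, although AGA1 and CWP2 exceeded it without Not4RRM replicate 1. It lies at chrIV:721071-721481 on the reverse strand of the R64 assembly as 1 coding exon of 411 bp, and it resembles CCW12 (YLR110C, chrXII:369697-370098, reverse strand, 402 bp), with 338 identical positions over an alignment of 411 (82.2%). R64 annotates it as a pseudogene, and its reading frame holds an internal stop codon. The stretch around that codon is shown with its counterpart in CCW12, each on the coding strand, 5′ to 3′, at chrIV:721257-721307 and chrXII:369877-369924, and the capitals mark codon 67 of each frame, which is a stop codon in CCW22 and an open codon in CCW12.
CCW22: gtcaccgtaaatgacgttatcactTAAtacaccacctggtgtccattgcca
CCW12: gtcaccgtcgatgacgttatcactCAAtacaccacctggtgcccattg
The 2 genes share no run of 50 identical bases, although how reads that fit both were counted is not given in the sources used here. CCW22 had 2412, 2551 and 2602 in the Not4RRM cultures, against 5842, 6207 and 5869 in the Not4WT cultures, a tight separation in which every Not4RRM culture was under every Not4WT culture by more than the spread within either group. The log2 fold change was -1.24 (standard error 0.16, limma adjusted p = 0.0720), which ties with the lowest adjusted p of all tested genes. Without Not4RRM replicate 1 it was -1.21 (adjusted p = 0.0154), and with the trend on coding length removed from each library it was -1.53 (adjusted p = 0.0332). That last fit called 5 of 5801 genes (0.0862%), of which CCW22 was the 1 wall gene. In the other alternatives the adjusted p of CCW22 was above 0.05, at 0.128 to 0.416 with any 1 of the other 5 libraries left out, 0.187 with a replicate block and 0.0671 with the block and the length trend removed together, while its log2 fold change stayed between -1.53 and -1.21 in all of them. CCW12 itself had 108224, 64235 and 63409 with Not4RRM, against 133960, 126778 and 85433 with Not4WT. Its groups overlapped through Not4RRM replicate 1, and the log2 fold change was -0.57 (standard error 0.33, limma adjusted p = 0.418), or -0.83 without that library (adjusted p = 0.118) and -0.86 with the length trend removed.

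PST1 (YDR055W), a GPI protein known to be induced when the wall is damaged, was the 1 wall gene higher at an unadjusted p under 0.05. It had 2342, 3356 and 3240 in the Not4RRM cultures, against 1476, 2078 and 1942 in the Not4WT cultures. All 3 Not4RRM values were above all 3 Not4WT values, with a log2 fold change of 0.70 (standard error 0.22, limma adjusted p = 0.222) and 0.86 without Not4RRM replicate 1 (adjusted p = 0.0384).

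SED1 (YDR077W), an abundant structural wall protein, had 19110, 35128 and 29828 with Not4RRM, against 41884, 42768 and 41052 with Not4WT. The Not4WT cultures were close to each other and all above the Not4RRM cultures, of which replicate 1 was lowest, and the log2 fold change was -0.63 (standard error 0.28, limma adjusted p = 0.322), or -0.37 without that replicate (adjusted p = 0.203). FLO11 (YIR019C) had 168, 475 and 425 with Not4RRM, against 507, 569 and 478 with Not4WT. Its groups did not overlap either, but the gap between 475 and 478 was small, and the log2 fold change of -0.67 (limma adjusted p = 0.401) was -0.20 without replicate 1.

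CWP2, AGA1 and TIP1 were set apart by Not4RRM replicate 1. CWP2 (YKL096W-A), a major structural mannoprotein, had 7499, 2447 and 2024 with Not4RRM, against 8535, 6164 and 4344 with Not4WT. AGA1 (YNR044W), the wall-anchored subunit of the a-agglutinin by which mating cells adhere, had 5563, 1632 and 1430 with Not4RRM, against 6136, 3563 and 3768 with Not4WT. In both, replicate 1 lay within the Not4WT range and the other Not4RRM cultures lay under it. The log2 fold changes were -0.87 for CWP2 and -0.89 for AGA1 (limma adjusted p = 0.417 and 0.418), and without Not4RRM replicate 1 they were -1.46 and -1.51 (adjusted p = 0.0375 and 0.0292). TIP1 (YBR067C), a mannoprotein induced by cold shock, had 4092, 1974 and 1910 with Not4RRM, against 3623, 3019 and 2809 with Not4WT, with -0.33 for all samples (adjusted p = 0.604), -0.69 without that library (adjusted p = 0.0421) and -0.50 with the length trend removed. Among the genes that define mating type a, which is that of BY4741, STE2, BAR1 and MFA1 were also high in Not4RRM replicate 1 and low in the other Not4RRM cultures. STE2, the α-factor receptor, had 12721, 5365 and 5699 with Not4RRM, against 8770, 8565 and 9367 with Not4WT, and BAR1, the α-factor protease, had 6533, 2661 and 2584 with Not4RRM, against 3945, 4089 and 4876 with Not4WT. MFA2, a gene for the a-factor pheromone, did not have this order, with 1195, 1303 and 1554 with Not4RRM, against 2375, 446 and 2190 with Not4WT. The 4 a-type markers (STE2, BAR1, MFA1, MFA2) summed to 33061, 9957 and 10547 with Not4RRM, against 23243, 18161 and 19067 with Not4WT, and the 4 α-type markers to 360 to 577 with Not4RRM, against 426 to 483 with Not4WT. Of the a-type markers 0 of 4, and of the α-type markers 1 of the 3 tested (SAG1, lower, -0.40, limma adjusted p = 0.282), had an unadjusted p under 0.05, and their part in the AGA1 result was not tested.

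The other GPI proteins differed less. CWP1 (YKL096W), found at the birth scar, had 3258, 2559 and 2240 in Not4RRM cultures, against 3520, 4324 and 3255 in Not4WT cultures (log2 fold change -0.47, limma adjusted p = 0.331), and the groups overlapped only by 3258 against 3255. SPI1 (YER150W), induced by weak acids, had a log2 fold change of 0.18 and TIR1 (YER011W), of the cold shock family of TIP1, 0.19, both with overlapping groups and standard errors of 0.18 and 0.28. Without Not4RRM replicate 1 TIR1 was at 0.42, and with the length trend removed SPI1 was at -0.079 and TIR1 at 0.083. TIR1 was among the low genes of the list, with 128 to 232 in Not4RRM and 117 to 197 in Not4WT cultures.

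The PIR proteins as a group did not separate. They took 1.39 ± 0.336% of scaled counts with Not4RRM and 1.63 ± 0.296% with Not4WT (SD, n = 3 each), and 3 of 4 were lower, or 4 of 4 with equal totals (median log2 fold change -0.18 with TMM). HSP150 (YJL159W) had 116960, 201021 and 186503 in Not4RRM cultures, against 158763, 205821 and 165035 in Not4WT cultures, a log2 fold change of -0.10 (standard error 0.32). Its lowest value was that of Not4RRM replicate 1, without which the fold change was 0.14. CIS3 (YJL158C) was the 1 PIR gene without overlap, with 26315, 29744 and 31656 with Not4RRM, against 34560, 41532 and 32390 with Not4WT (log2 fold change -0.30, standard error 0.22, limma adjusted p = 0.504). HSP150 and CIS3 lie end to end on chromosome X with 574 bp between their coding sequences on opposite strands, and 16 windows of 50 bases are identical in both, 1.34% of the windows of HSP150 and 2.52% of those of CIS3. PIR1 (YKL164C, 0.04) and PIR3 (YKL163W, -0.25), divergent neighbours on chromosome XI 1581 bp apart, overlapped between groups, were at 0.36 and 0.02 without Not4RRM replicate 1, and share 60 such windows (6.14% of PIR1, 6.46% of PIR3), so their reads may be split with some error. The remaining wall genes share none.

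Of the 3 glucan synthases 2 were lower and 1 higher, and the paralogs FKS1 and GSC2 had unlike values. FKS1 (YLR342W), the catalytic subunit in growing cells, had 17067, 22092 and 23252 with Not4RRM, against 30473, 33142 and 32001 with Not4WT. The groups were well apart, with a log2 fold change of -0.63 (standard error 0.22, limma adjusted p = 0.249). It was -0.38 with the length trend removed (adjusted p = 0.354), which is under 1.5-fold. GSC2 (YGR032W, also FKS2), the form used under stress and in sporulation, had 2127, 4106 and 4279 with Not4RRM, against 2901, 3300 and 3032 with Not4WT. Here Not4RRM replicate 1 was under all Not4WT cultures and the other Not4RRM cultures were above them, for a log2 fold change of 0.12 (standard error 0.29), or -0.002 with equal totals and 0.45 without replicate 1 (limma adjusted p = 0.0705). The difference between the fold changes of the 2 paralogs was not tested. KRE6 (YPR159W), needed for β-1,6-glucan, had 4864, 6216 and 5830 with Not4RRM, against 6357, 7114 and 6969 with Not4WT (log2 fold change -0.28, standard error 0.19, limma adjusted p = 0.469), lower in every Not4RRM culture than in any Not4WT culture. Its log2 fold change was -0.18 without Not4RRM replicate 1 and -0.12 with the length trend removed. That removal moved GSC2 to 0.37. Together the 3 genes took 0.192 ± 0.0306% of scaled counts with Not4RRM and 0.293 ± 0.0209% with Not4WT (SD, n = 3 each).

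The 3 chitin synthases had no common direction, with log2 fold changes of -0.38, 0.00 and 0.37. CHS3 (YBR023C), which makes most of the chitin of the wall and of the ring at the bud neck, had 1071, 1235 and 1116 in the Not4RRM cultures, against 1481, 1521 and 1460 in the Not4WT cultures. This was a small difference with no overlap, -0.38 on the log2 scale (standard error 0.15, limma adjusted p = 0.291), and -0.18 with the length trend removed (adjusted p = 0.584). CHS2 (YBR038W), which makes the primary septum and is transcribed in mitosis, had 963, 2355 and 2453 with Not4RRM, against 1251, 1612 and 1286 with Not4WT. Replicate 1 was again on the other side of the Not4WT cultures from the other Not4RRM cultures, and the log2 fold change of 0.37 (standard error 0.36, limma adjusted p = 0.616) became 0.81 without it (adjusted p = 0.0338) and 0.56 with the length trend removed. CHS1 (YNL192W), which repairs the wall after division, had 913 to 1170 with Not4RRM and 972 to 1035 with Not4WT, a log2 fold change of 0.00 (standard error 0.16), or -0.12 with equal totals, 0.079 without Not4RRM replicate 1 and 0.21 with the length trend removed.

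The glucan remodelling enzymes were lower in 9 of 9 cases (median log2 fold change -0.50), and also with each other scaling, although EXG1 was at 0.02 once the length trend was removed. Of the 9, 4 had an unadjusted p under 0.05. They took 1.07%, 0.833% and 0.813% of scaled counts with Not4RRM, against 1.51%, 1.43% and 1.25% with Not4WT. The Gas enzymes elongate β-1,3-glucan chains by transferring one onto another. GAS1 (YMR307W), the main one in vegetative cells, had 43144, 36729 and 40058 with Not4RRM, against 75876, 59554 and 55347 with Not4WT (log2 fold change -0.66, standard error 0.24, limma adjusted p = 0.257). GAS5 (YOL030W), at chrXV:268187-269641, had 3924, 3647 and 3758 with Not4RRM, against 5591, 6841 and 5834 with Not4WT (-0.68, standard error 0.18, adjusted p = 0.164 from limma). GAS3 (YMR215W), at chrXIII:696796-698370, had 387, 443 and 407 with Not4RRM, against 598, 688 and 693 with Not4WT (-0.68, standard error 0.15, adjusted p = 0.132 from limma). In all 3 genes the groups were separate, and for GAS3 and GAS5 the Not4RRM cultures, replicate 1 included, were closer to each other than to any Not4WT culture. Without Not4RRM replicate 1, GAS5 was at -0.71 (limma adjusted p = 0.0360) and GAS3 at -0.63 (adjusted p = 0.0418).

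**Figure D2:**
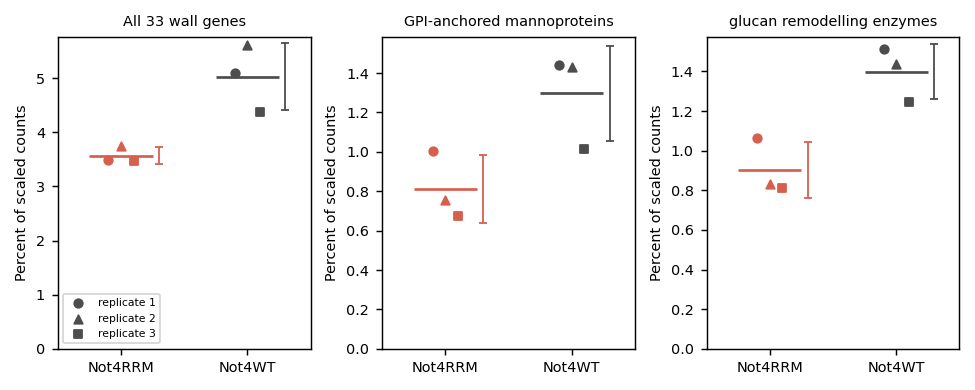
Share of all scaled counts, in percent, taken by the 33 wall genes together, by the GPI-anchored mannoproteins and by the glucan remodelling enzymes, with 1 symbol per culture, a line at the group mean and a bar of 1 SD beside it (n = 3 each). For all 33 genes the Not4RRM cultures lie at 3.47% to 3.75% and the Not4WT cultures at 4.38% to 5.62%. Shares are of the deposited equal totals, without TMM scaling.

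SCW4 and SCW10 encode a pair of glucanase-like wall proteins, and their coding sequences are identical at 66.3% of alignment positions. SCW4 (YGR279C) had 11117, 10944 and 10835 in the Not4RRM cultures, against 17013, 18729 and 14493 in the Not4WT cultures. The Not4RRM values were nearly equal, and the log2 fold change was -0.60 (standard error 0.20, limma adjusted p = 0.230). SCW10 (YMR305C) had 66891, 41354 and 43558 with Not4RRM, against 74511, 71462 and 64382 with Not4WT, where replicate 1 reached into the Not4WT range (-0.50, standard error 0.27, limma adjusted p = 0.390, or -0.72 without that replicate, adjusted p = 0.0752). CRH1 and UTR2 crosslink chitin to glucan, and of the pair CRH1 (YGR189C) did not overlap between groups, with 11417, 13608 and 12991 with Not4RRM, against 15336, 15790 and 14461 with Not4WT (-0.26, standard error 0.19, or -0.17 with the length trend removed). UTR2 (YEL040W) was at -0.30 (standard error 0.22, limma adjusted p = 0.504) with overlap through replicate 1, and at -0.51 without that replicate (adjusted p = 0.0493), which is under 1.5-fold. BGL2 (YGR282C), a major glucan transferase of the wall, was at -0.39 (standard error 0.24) and also overlapped, as Not4RRM replicate 1 was above Not4WT replicate 2. EXG1 (YLR300W), the main exo-β-1,3-glucanase, had a log2 fold change of -0.05 (standard error 0.21), or -0.16 without Not4RRM replicate 1, with 5172 to 6769 in Not4RRM and 5189 to 7008 in Not4WT cultures.

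SIM1 (YIL123W), a SUN family protein of the wall linked to septation, had the second largest difference with all samples. It was exceeded also by CWP2 (-1.25, against -0.93 for SIM1) with the length trend removed and by AGA1 and CWP2 without Not4RRM replicate 1. The same held for CWP2 (-1.15) without Not4WT replicate 3 and for AGA1 (-1.03) without Not4WT replicate 2. SIM1 lies at chrIX:128151-129581 and had 13566, 13943 and 11731 with Not4RRM, against 23868, 30007 and 25493 with Not4WT. The highest Not4RRM culture was far under the lowest Not4WT culture, with a log2 fold change of -1.01 (standard error 0.21, limma adjusted p = 0.121) and -1.04 without Not4RRM replicate 1 (adjusted p = 0.0300). Its relative UTH1 (YKR042W) had 17246, 20046 and 19865 with Not4RRM, against 22677, 23956 and 21058 with Not4WT (-0.25, standard error 0.20, limma adjusted p = 0.545), separate but by a small margin. YPS1 (YLR120C), a GPI-anchored protease that trims wall proteins, had a log2 fold change of -0.04 (standard error 0.18), or 0.053 without Not4RRM replicate 1, with 4825 to 5831 in Not4RRM and 5224 to 5886 in Not4WT cultures.

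**Figure D3:**
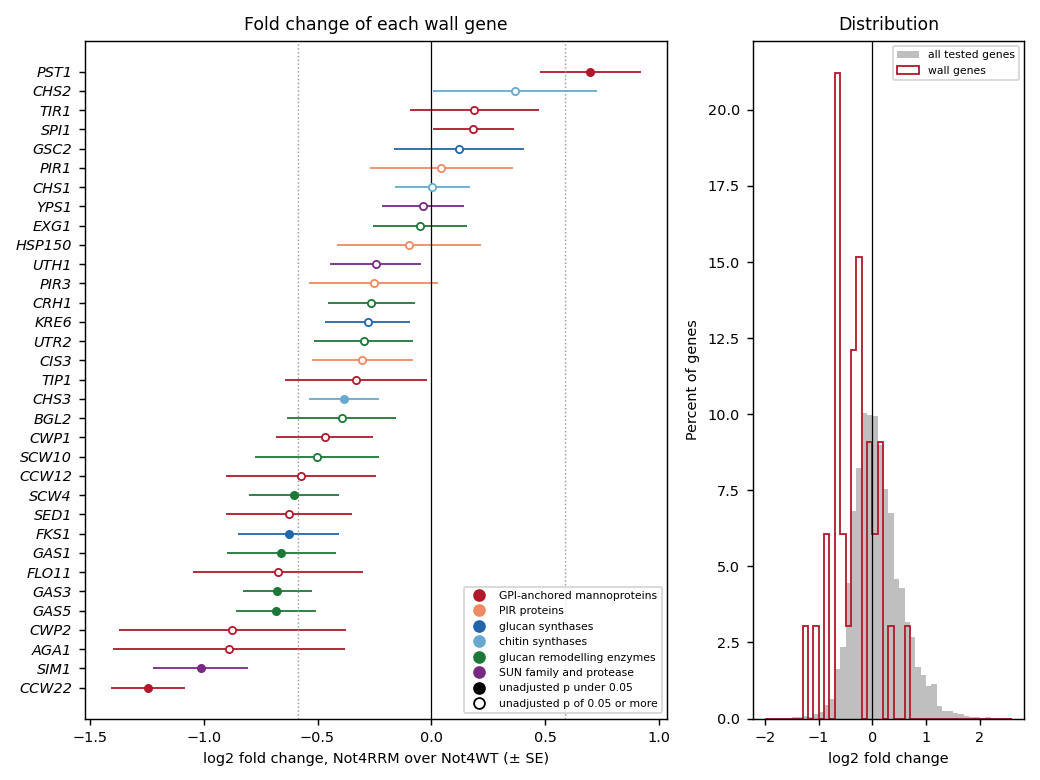
Left, log2 fold change (Not4RRM over Not4WT, ± SE from limma) of each wall gene, coloured by role, filled where the unadjusted p is under 0.05, with dotted lines at a 1.5-fold change. Right, the distribution of the log2 fold changes of the 33 wall genes and of all 5805 tested genes, in percent of genes per bin, where the wall genes lie mostly under 0 (median -0.33) and all genes centre near 0 (median 0.05).

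How far Not4RRM replicate 1 set the values differed between wall genes. It was the highest of the Not4RRM cultures for 12 of the 33 and the lowest for 19. It differed by more than 1.5-fold from the mean of the other Not4RRM cultures for 14 genes, upward for AGA1, CWP2, TIP1, CCW12, SCW10 and UTR2 and downward for FLO11, CHS2, GSC2, PIR1, PIR3, SED1, HSP150 and TIR1. For CCW22, SCW4, GAS5, SIM1, SPI1, CHS3 and GAS3 the difference lay between -0.13 (GAS3) and 0.09 (SIM1) on the log2 scale. Without this library limma called 358 of 5805 genes (6.17%), and 9 wall genes, 2 higher (PST1 and CHS2, against 3.91% of tested genes called higher) and 7 lower (CCW22, SIM1, GAS5, GAS3, CWP2, AGA1 and TIP1, against 2.26% lower). Then 23 wall genes were lower and 25 did not overlap between groups, against 52.6% of tested genes. With any 1 of the other 5 libraries left out in its place, which also leaves 2 cultures in a group, 15 to 18 did not overlap. The median deviation of the 33 genes from the Not4WT mean was -0.45, -0.27 and -0.41 on the log2 scale in Not4RRM replicates 1, 2 and 3, against -0.05, 0.09 and -0.07 in the Not4WT replicates, so the direction of the list did not rest on that library, although the values of single genes did.

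**Figure D4:**
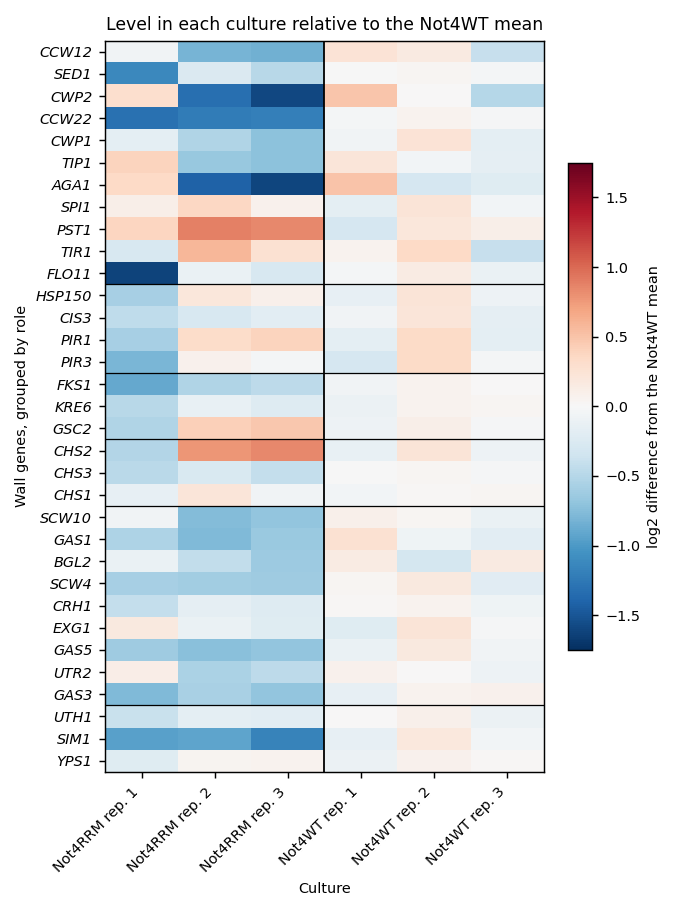
Log2 difference of each wall gene in each culture from its Not4WT mean, with the 3 Not4RRM cultures left of the 3 Not4WT cultures and lines between role groups. CCW22, SIM1, SCW4, GAS3 and GAS5 are blue (lower) in all 3 Not4RRM cultures, while AGA1, CWP2 and TIP1 are blue in replicates 2 and 3 only and CHS2 is red (higher) in those and blue in replicate 1.

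The upstream sequence of the wall genes was searched for known factor sites over 500 bases before each start codon in R64 and on both strands. The Swi4 site CGCGAAA was found upstream of 9 of 33 wall genes (27.3%), against 5.87% of 5899 genes. These were CCW12, CWP1, CWP2, GAS1, GAS3, SCW4, SCW10, UTR2 and SIM1, and 9 of the 9 were lower (median log2 fold change -0.60), 4 at an unadjusted p under 0.05, in a list of which 78.8% was lower. The windows of those 4 are shown on the strand of the gene, with the site or its reverse complement in capitals, at chrIX:127914-127941 (SIM1, forward strand), chrXIII:886635-886662 (GAS1, forward), chrXIII:696613-696640 (GAS3, forward) and chrVII:1050375-1050402 (SCW4, reverse strand).
SIM1: tttttttggcgTTTCGCGtcagtcaata
GAS1: gttcgatatatTTTCGCGgctcgcgttt
GAS3: tcgagaattttTTTCGCGcgctttctat
SCW4: taggcaccgctTTTCGCGcgacaccctg
A match to the Rlm1 consensus was found for 7 wall genes (21.2%, against 1.8% of all genes), namely CWP1, SED1, PST1, HSP150, PIR3, GAS5 and BGL2, of which 6 were lower and 1 higher (median log2 fold change -0.39). The windows of the 2 with the lowest p, 1 in each direction, are given at chrIV:563213-563240 (PST1) and chrXV:268055-268082 (GAS5), both forward, with the match in capitals.
PST1: tacgagtctCTAAAAATAGcgtaggcac
GAS5: ttgcttataCTATAAATAGgaaggtccc
The Mbp1 site ACGCGT, whose inner letters CGCG are shared with the Swi4 site, was found for 5 wall genes (15.2%, against 5.44%), of which 5 were lower, 2 at an unadjusted p under 0.05. The stress response element AGGGG was found for 10 (30.3%, against 34%), of which 7 were lower, 1 at that level. A match is a description of these letters, and binding was not measured.

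Other genes of wall synthesis were counted at an unadjusted p under 0.05, which 9.84% of all tested genes reached as higher and 6.12% as lower. Of 17 genes of wall integrity signalling, 6 were higher and 11 lower (median log2 fold change -0.08), and 1 in each direction reached that level. SLT2, the MAP kinase, had 3623, 4305 and 4242 with Not4RRM, against 2615, 2655 and 2561 with Not4WT (0.63, limma adjusted p = 0.169). It lies on chromosome VIII, whose genes had the median of 0.65 given above, and the part of that shift in its value was not tested. WSC2, a wall stress sensor, had 1197, 1277 and 1063 with Not4RRM, against 2282, 2026 and 1818 with Not4WT (-0.79, limma adjusted p = 0.132).

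Of 10 accessory genes of glucan synthesis, BIG1, needed for β-1,6-glucan and also on chromosome VIII, was the 1 at an unadjusted p under 0.05 (0.80, limma adjusted p = 0.132), and the median of the 10 was -0.07. Of 5 regulators of chitin synthases 0 reached it (median 0.19). Of 22 genes for the synthesis and transfer of GPI anchors, 2 were lower at that level, GUP1 (-0.52, limma adjusted p = 0.193) and CWH43 (-0.47, limma adjusted p = 0.232), both known for anchor lipid remodelling, and the median was -0.17. The path that makes the anchors had a median nearer 0 than the GPI mannoproteins of the list (-0.57, the pseudogene CCW22 included). That contrast was not tested.

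Of 16 further wall proteins outside the list, 4 were lower and 2 higher at an unadjusted p under 0.05 (6.12% and 9.84% of all tested genes), with a median of -0.16. CCW14, an inner layer wall glycoprotein, had 19525, 21880 and 22086 in Not4RRM cultures, against 39579, 42176 and 32663 in Not4WT cultures (-0.84, limma adjusted p = 0.164). NCW2, a GPI wall protein, had 5475, 5746 and 5428 with Not4RRM, against 3020, 3161 and 3168 with Not4WT (0.83, limma adjusted p = 0.112). TIR2 was at -0.55 and DAN1, an anaerobic mannoprotein, at 0.74. ECM33 (-0.58) and YPS6 (-0.61) complete the 6 and were named after their values were seen.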

How the data were processed

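RNA from 6 cultures, 3 with Not4RRM and 3 with Not4WT, was sequenced by the authors on an Ion Torrent Proton. Per the study's methods, bases of low quality were trimmed, reads were aligned with RNA-STAR to the S288C transcriptome (R64 in the submitters' processing notes, versions not given in the sources used here), counted per transcript and scaled to the sample of lowest coverage. The deposited values are these rounded scaled counts and were treated as a score, not as raw counts, so models of counts were not used. Depth before scaling is unknown. The kit differs between the labels and the methods, and the strand used in counting is not given, so antisense reads cannot be told apart.

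One row without a gene name was left out. Identifiers of 5907 genes matched R64 and 6 did not. The test covered genes that reached 10 in 3 samples and 15 in total (5805 of 5913, and all 33 wall genes). Values were scaled by TMM (30% of ratios and 5% of levels trimmed) and log2(value + 1) was fitted with limma 3.58.1 in R 4.3.3, by group alone with a trended prior variance. P-values were adjusted over all tested genes. The code was tested on simulated data. Upstream windows and gene alignments were made with Python 3.11.15 and Biopython 1.88.

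The wall genes, the lists of other genes and the alternatives were chosen with earlier results of these data known. Per-sample values were given by rule for wall genes with an unadjusted p under 0.05 or with no overlap between groups, for the 3 highest per kilobase and for at least 1 per role. CWP2, AGA1, TIP1, CWP1, GSC2 and CHS2 fall outside that rule and were given per sample after their values were seen. From each other list up to 4 genes with an unadjusted p under 0.05 were named. Alternatives were other scalings, pseudocounts, filters, a constant prior variance, a replicate block, a fit after the coding length trend of each library was taken out by loess (span 0.5), both together, the steps of the methods and each sample left out. The study describes the cultures as grown in triplicate, but whether they came from separate transformants or days is not given, so p-values measure the spread between these cultures.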

Additional observations from a re-analysis of the deposited data

How the results depend on the processing

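The median log2 fold change of the 33 wall genes was -0.45 with the deposited equal totals, which shift all genes by -0.12, and -0.41 to -0.34 with 1 sample left out. The number of genes called was 5 with the length trend removed, 355 by the steps of the methods and 0 to 358 with 1 sample left out, and of wall genes 1, 7 and 0 to 9, where the highest counts, 358 and 9, were those without Not4RRM replicate 1. Wall genes with an unadjusted p under 0.05 numbered 9 with all samples and 4 to 19 with 1 left out (4 without Not4WT replicate 1, 5 without Not4RRM replicate 3, 19 without Not4RRM replicate 1), and those without overlap 15 to 25. Same-numbered cultures did not deviate together in all cases (correlations 0.07, -0.15 and 0.38), although the 0.38 of replicate 3 was the highest of all pairs between groups. A replicate block gave 0 called genes and 10 wall genes at an unadjusted p under 0.05.

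Of 33 wall genes, 24 kept their sign in all 16 alternatives tried. In the other 9, none of which was called in any, the sign turned at values under 0.15 on the log2 scale. With equal totals PIR1 was at -0.079, GSC2 at -0.0020 and CHS1 at -0.12, and with median of ratios scaling CHS1 was at -0.025. With the length trend removed, with or without the replicate block, SPI1 was at -0.079, EXG1 at 0.021 and YPS1 at 0.083. With 1 sample left out, values ran from -0.044 to 0.42 for TIR1, -0.13 to 0.36 for PIR1, -0.25 to 0.14 for HSP150, -0.43 to 0.018 for PIR3, -0.056 to 0.45 for GSC2, -0.10 to 0.079 for CHS1, -0.18 to 0.062 for EXG1 and -0.11 to 0.053 for YPS1. The causes were not tested. The unknown depth before scaling leaves counting error unmeasured, which bears most on the low genes TIR1, FLO11 and GAS3.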

Other observations

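Of 7 genes for the separation of daughter cells, which are transcribed at the end of mitosis, 4 had the order of libraries seen for CHS2. EGT2, a GPI-anchored wall protein of this group, had 4352, 12191 and 11723 in Not4RRM cultures, against 5454, 5533 and 5171 in Not4WT cultures. SCW11 had 2177, 4523 and 4395 with Not4RRM, against 2513, 2368 and 2322 with Not4WT, and DSE2 had 5156, 12724 and 13210 with Not4RRM, against 8889, 6611 and 7570 with Not4WT. DSE2 lies on chromosome VIII, where log2 fold changes centred on 0.65 (median). The part of that shift in the DSE2 values, and in the sum of the 7 genes below, was not tested. DSE4 had 689, 1051 and 959 with Not4RRM, against 701, 913 and 750 with Not4WT. In each of the 4, replicate 1 of Not4RRM was the lowest of all 6 libraries and the other Not4RRM cultures were above every Not4WT culture. AMN1 had replicate 1 highest instead, with 6039, 5414 and 4947 with Not4RRM, against 4863, 4279 and 4419 with Not4WT, and its groups did not overlap. CTS1 and DSE1 overlapped between groups, at log2 fold changes of -0.09 and -0.06. The 7 genes of the list summed to 25543, 47412 and 45405 with Not4RRM, against 34265, 29004 and 29316 with Not4WT. At an unadjusted p under 0.05 there were 0 of the 7 genes, with a median log2 fold change of 0.27. All 7 genes were named after their values were seen.

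Of 10 stress and post-diauxic genes, HSP12, a membrane-protecting small heat shock protein, was the 1 at an unadjusted p under 0.05, with 1502, 2947 and 2559 in Not4RRM cultures, against 854, 1103 and 1978 in Not4WT cultures (log2 fold change 0.87, limma adjusted p = 0.306). The groups overlapped, and the median of the 10 genes was 0.13.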
